A study of Drosophila melanogaster with 42 samples.

Results

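MSL1 and MSL2 are partners in a single protein complex, and the sites at which each was found by ChIP-seq in the same line of males were compared peak by peak. The MSL1 list held 21980 peaks and the MSL2 list 6110, together 28090 of the 39130 peaks in the 6 deposited lists of the series. A peak was called shared when a peak of the other protein lay within 500 bp of it, measured from edge to edge, and private otherwise. The X chromosome and the autosomes (arms 2L, 2R, 3L, 3R and chromosome 4) were taken apart throughout.

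The flies were M1[WT] males, in which both copies of msl-1 carry null alleles (msl-1 L60 over msl-1 γ269) and MSL1 comes from a homozygous wild-type msl-1 transgene driven by the Ubi-p63E promoter and integrated at 86Fb. MSL2 comes from the endogenous gene of these males. Chromatin was prepared from whole adults, 3 days old by the labels, with rabbit antibodies to MSL1 (1 library) or MSL2 (2 libraries), and peaks were called against nonspecific rabbit IgG. The series holds 1 male IgG library, and it is labelled wt, not M1[WT]. Since whole flies were used, binding in many cells and strong binding in few cells cannot be told apart. 3 other lists served only as further readouts, namely MSL3 in M1[WT] males (placed in that line by its library titles, its genotype label being that of the MSL2-expressing line) and MSL1 and MSL2 in M1[WT]+MSL2 females, which carry the same msl-1 alleles and 1 copy each of the msl-1 transgene and a FLAG-tagged msl-2 transgene.

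In Drosophila males the MSL complex raises transcription of the single X chromosome. MSL1 is the scaffold, MSL2 binds it through the coiled-coil region of MSL1 and reads DNA, MSL3 binds nucleosomes of transcribed genes, MOF acetylates histones, MLE is a helicase, and the roX RNAs are incorporated into the complex. The complex first enters the X at high affinity sites (HAS), many of which carry GA-rich elements that are also bound by the zinc finger protein CLAMP, and it is then found over the bodies of active genes.

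The sequences below are examples of the classes, taken from the strongest peaks. Each is 101 bp of the plus strand of dm6 (BDGP Release 6, from RefSeq) centred on a summit, the base with the highest signal in a peak. Capitals mark GAGAG on either strand and, likewise, AAGCAGT, so that their reverse complements are capitalised as well. Both were chosen after these sequences had been read. The first pair are summits at which both proteins were among their strongest on the X, at roX1 (exon of the RNA) and in an intron of Rip11, which encodes a partner of the vesicle GTPase Rab11.
roX1, shared, chrX:3861286-3861386: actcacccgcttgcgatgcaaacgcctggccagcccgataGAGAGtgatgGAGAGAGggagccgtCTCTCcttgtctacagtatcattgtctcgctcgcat
Rip11, shared, chrX:18636445-18636545: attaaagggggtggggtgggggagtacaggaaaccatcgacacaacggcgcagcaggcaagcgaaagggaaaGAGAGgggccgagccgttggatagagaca

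The next 6 are summits of the strongest peaks private to MSL1, on the X near bves and in a coding exon of alpha-Man-Ia (a mannosidase of the Golgi) and on the autosomes near CG10602, in introns of dachs (an unconventional myosin of Fat signalling) and SNF4Agamma (a subunit of the energy sensor AMPK) and near Sox100B (a transcription factor of the testis). They are shown because AAGCAGT recurs in each of them.
bves, private to MSL1, chrX:21083411-21083511: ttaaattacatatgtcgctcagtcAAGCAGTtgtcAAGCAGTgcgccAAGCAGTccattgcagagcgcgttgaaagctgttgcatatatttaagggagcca
alpha-Man-Ia, private to MSL1, chrX:10308106-10308206: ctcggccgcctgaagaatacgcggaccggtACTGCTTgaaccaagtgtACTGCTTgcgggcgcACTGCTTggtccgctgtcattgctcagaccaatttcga
CG10602, private to MSL1, chr2L:18859309-18859409: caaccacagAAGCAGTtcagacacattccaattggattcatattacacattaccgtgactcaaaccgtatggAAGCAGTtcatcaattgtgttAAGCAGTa
dachs, private to MSL1, chr2L:8478110-8478210: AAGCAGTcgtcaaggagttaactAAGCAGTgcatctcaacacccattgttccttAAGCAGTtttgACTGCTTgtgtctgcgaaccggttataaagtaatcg
SNF4Agamma, private to MSL1, chr3R:21184886-21184986: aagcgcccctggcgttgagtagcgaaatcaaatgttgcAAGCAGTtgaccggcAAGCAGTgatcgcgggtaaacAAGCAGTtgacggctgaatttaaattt
Sox100B, private to MSL1, chr3R:31086483-31086583: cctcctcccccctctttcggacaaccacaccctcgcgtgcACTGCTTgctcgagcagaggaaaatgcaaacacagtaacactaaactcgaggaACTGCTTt

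The last 4 are summits of peaks private to MSL2, in introns of norpA (the phospholipase C of phototransduction) and dnc (a cAMP phosphodiesterase) on the X, and on the autosomes close to the start of CenG1A and at the noncoding asRNA:CR44119. They are shown because none of them holds AAGCAGT and because dnc carries a long GA repeat.
norpA, private to MSL2, chrX:4324881-4324981: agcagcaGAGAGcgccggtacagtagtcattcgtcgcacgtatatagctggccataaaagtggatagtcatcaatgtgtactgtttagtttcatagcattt
dnc, private to MSL2, chrX:3292845-3292945: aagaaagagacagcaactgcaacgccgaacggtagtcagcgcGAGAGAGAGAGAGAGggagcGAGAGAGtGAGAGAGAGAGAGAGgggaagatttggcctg
CenG1A, private to MSL2, chr2L:13835463-13835563: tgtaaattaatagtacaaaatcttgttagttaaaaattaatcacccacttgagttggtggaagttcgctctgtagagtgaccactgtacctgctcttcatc
asRNA:CR44119, private to MSL2, chr2L:8205198-8205298: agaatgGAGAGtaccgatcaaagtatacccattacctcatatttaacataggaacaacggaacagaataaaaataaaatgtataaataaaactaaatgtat

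The lists differ in how they were made, which bears on every value that follows. The MSL1 list has the form of MACS2 output and comes from 1 library, whereas the MSL2 list has the form of output of the irreproducible discovery rate (IDR) procedure on 2 inputs. Of the MSL1 peaks, 3406 (15.5%) had a −log10 p under 2, against 8 (0.131%) of the MSL2 peaks. Values were therefore used only as ranks within a list, rank 1 being the highest −log10 p, and each comparison was repeated on lists of equal length. For these, the strongest 2351 MSL1 peaks of the X and the strongest 3743 of the autosomes were set against all MSL2 peaks of the same chromosomes. With 1 list per protein there was no error between replicates, and the 95% Wilson intervals given with shares cover counting error only and treat neighbouring peaks as independent. The numbers of reads behind the lists are unknown.

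Both proteins were concentrated on the X among their strong peaks, and in the full lists MSL2 was more so than MSL1. The X held 2351 MSL2 peaks, 38.5% of that list and 99.9 per Mb, against 3743 on the autosomes, or 33.9 per Mb. For MSL1 the X held 4317 peaks, 19.6% of the list and 183 per Mb, and the autosomes 17624, or 160 per Mb. The strongest 6110 MSL1 peaks, as many as the MSL2 list holds, had 2293 on the X (37.5%, 95% interval 36.3 to 38.8), against 38.5% (37.3 to 39.7) of the MSL2 peaks. The difference between the full lists thus came with the weaker peaks of the MSL1 list. This selection was chosen after the data had been seen.

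On the X, nearly all MSL2 peaks lay at MSL1 peaks. In the full lists 2124 of 2351 MSL2 peaks were shared (90.3%, 95% interval 89.1 to 91.5), while 29.4% of 1000 bp tiles of the X have their middle within 500 bp of an MSL1 peak. Of the MSL1 peaks 2533 of 4317 were shared (58.7%, 57.2 to 60.1), against 20.1% of tiles near an MSL2 peak. With lists of equal length, 1867 of 2351 MSL2 peaks (79.4%, 77.7 to 81.0) and 2003 of 2351 MSL1 peaks (85.2%, 83.7 to 86.6) were shared, and 19.7% of tiles lay near the retained MSL1 peaks.

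On the autosomes the strong peaks of both proteins coincided far less often. In the full lists 3003 of 3743 MSL2 peaks were shared (80.2%, 78.9 to 81.5), against 20.7% of autosomal tiles near an MSL1 peak, but only 4023 of 17624 MSL1 peaks (22.8%, 22.2 to 23.5), against 5.93% of tiles near an MSL2 peak. With equal length, 1795 of 3743 MSL2 peaks (48.0%, 46.4 to 49.6) and 1882 of 3743 MSL1 peaks (50.3%, 48.7 to 51.9) were shared, against 5.34% of tiles near the retained MSL1 peaks. The share on the X exceeded that on the autosomes by 31.5 percentage points for MSL2 (Newcombe 95% interval 29.1 to 33.7) and by 34.9 points for MSL1 (32.7 to 37.0). In the full lists the MSL2 difference was 10.1 points, so the length of the MSL1 list hid most of it. The tile shares differed as well, at 19.7% of the X and 5.34% of the autosomes near the retained MSL1 peaks, and the differences are not adjusted for this. The tile shares refer to points, and wide peaks reach further than points. Measured from the summit alone, the shares with equal length were 76.3% of MSL2 and 81.4% of MSL1 summits on the X and 42.8% and 45.9% on the autosomes.

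**Figure D1:**
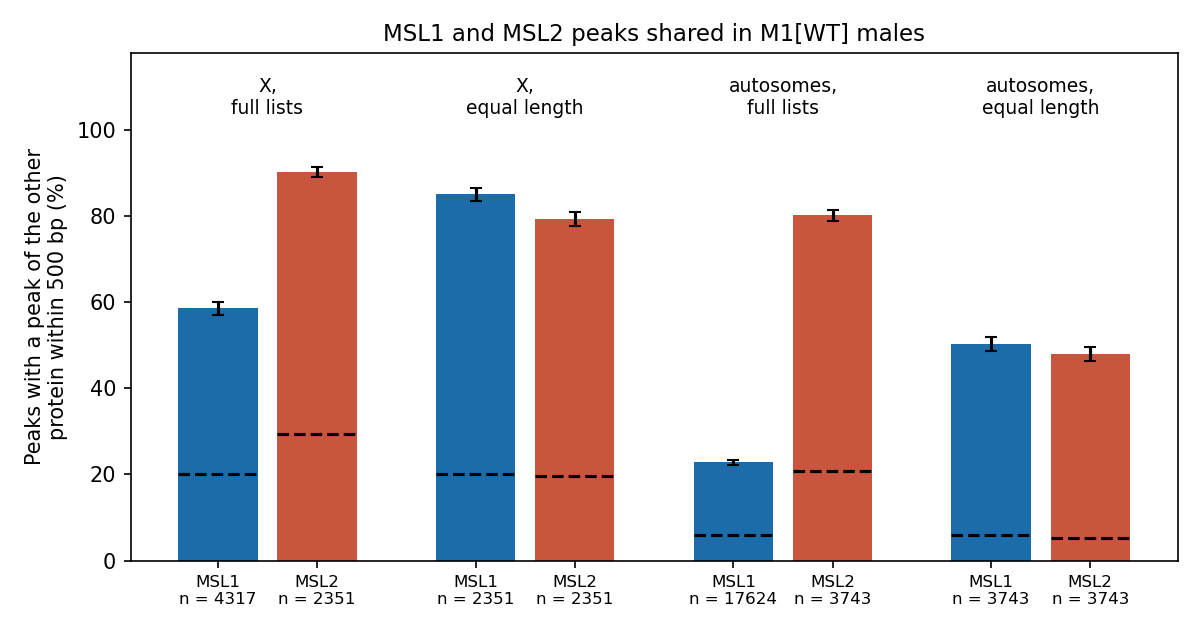
Percentage of MSL1 (blue) and MSL2 (red) peaks with a peak of the other protein within 500 bp, on the X and the autosomes, for full lists and for lists of equal length. Error bars are 95% Wilson intervals over peaks and dashed lines the percentage of 1000 bp tiles near a peak of the other list; with equal length the X bars stand at 85.2% and 79.4% and the autosomal bars at 50.3% and 48.0%.

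The 4 large autosomal arms behaved alike. With equal length the MSL2 share was 45.5% to 51.0% and the MSL1 share 47.6% to 52.6% over 2L, 2R, 3L and 3R. Chromosome 4 is small, largely heterochromatic and targeted by the POF protein, and there 21 of 48 MSL2 peaks were shared in the full lists (43.8%, 30.7 to 57.7), below the 77.1% to 83.4% of the large arms. The MSL1 share there was 25.6% of 86 peaks (17.5 to 35.7), against 21.8% to 24.1%. With equal length 10 of 14 MSL1 peaks and 11 of 48 MSL2 peaks were shared. MSL1 peaks were sparser on chromosome 4, at 63.8 per Mb against 152 to 171 on the large arms.

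Most shared peaks overlapped a peak of the other protein, and fewer were shared across a gap. On the X, 2072 MSL2 peaks overlapped an MSL1 peak, 52 were apart by up to 500 bp, 68 by 501 to 1000 bp and 159 by more. The corresponding autosomal counts were 2782, 221, 206 and 534. For MSL1 the counts were 2268, 265, 228 and 1556 on the X and 3207, 816, 929 and 12672 on the autosomes, so that the autosomal MSL1 share depended most on the limit, being 18.2% with overlap alone and 28.1% with a gap of 1000 bp. Measured in sequence rather than in peaks, 83.3% of the bases within MSL2 peaks of the X were also within MSL1 peaks, against 49.9% on the autosomes.

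In the full lists sharing followed rank closely for MSL1 and less for MSL2. When each full list was cut into 10 bins of rank, all 431 MSL1 peaks of the strongest X bin were shared, 65.7% of bin 5 and 13.4% of the weakest. On the autosomes the MSL1 share fell from 65.9% in the strongest bin to 36.9% in the next and 8.05% in the weakest. The X share of MSL2 was 99.6% in the strongest bin, lowest in bin 6 at 84.3% and 92.4% in the weakest. The autosomal MSL2 share started at 88.5%, was lowest in bin 8 at 73.0% and was 86.7% in the weakest. With equal length sharing followed rank for both proteins on the X, falling from 100% in the strongest bin to 50.4% in the weakest for MSL1 and from 99.6% to 63.6% for MSL2. The autosomal MSL1 share fell from 80.2% to 29.9%, and the MSL2 share fell from 61.2% to 40.4% in bin 8 and was 51.5% in the weakest bin.

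**Figure D2:**
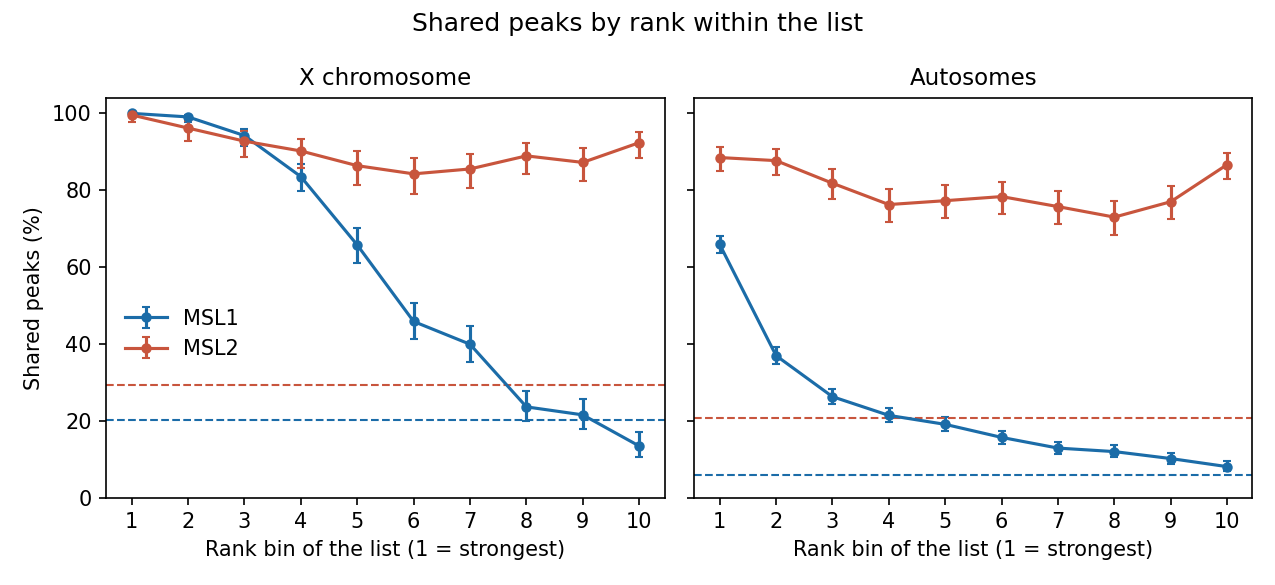
Percentage of shared peaks in each of 10 rank bins of the full MSL1 (blue) and MSL2 (red) lists, strongest bin on the left, with 95% Wilson intervals. Dashed lines give the percentage of tiles near a peak of the other list in the same colour; the MSL1 line falls from 100% to 13.4% on the X and from 65.9% to 8.05% on the autosomes, and the MSL2 lines stay between 73.0% and 99.6%.

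The contrast was strongest among the very top peaks, where weak peaks play no part. Of the strongest 100 MSL2 peaks on the X, 86 had one of the strongest 100 MSL1 peaks within 500 bp (77.9% to 91.5%), whereas on the autosomes 29 of 100 did (21.0% to 38.5%). For the strongest 500 the shares were 71.0% and 28.6%, and for the strongest 2000 they were 78.0% and 39.9%.

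A shared site was often a single peak of 1 protein facing several of the other. On the X 51.2% of shared MSL2 peaks had at least 2 MSL1 peaks within 500 bp, and 34.3% of shared MSL1 peaks at least 2 MSL2 peaks. On the autosomes these shares were 39.6% and 10.2%. Shared peaks were wider than private ones. On the X the median width of MSL1 peaks was 694 bp when shared and 358 bp when private, and that of MSL2 peaks 884 and 378 bp. Autosomal medians were 450 and 329 bp for MSL1 and 735 and 477 bp for MSL2. With equal length the ratio of medians was 1.61 and 2.31 on the X and 1.25 and 1.36 on the autosomes for MSL1 and MSL2, respectively. A wide peak meets the 500 bp rule more easily, and the lists were built differently.

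HAS carried both proteins or, in a few cases, neither. Earlier studies had named them as sites bound by MSL1 and MSL2, so this was in part fixed in advance. Of 301 HAS positions on the X, 284 had an MSL1 peak within 500 bp, 284 an MSL2 peak, 282 both and 15 neither. Of 1000 bp tiles of the X, 29.4% lay near an MSL1 peak and 20.1% near an MSL2 peak. Only 2 had MSL1 alone and 2 MSL2 alone, and with equal length 280 had both (93.0%, 89.6 to 95.4), 4 MSL2 alone and none MSL1 alone. HAS made up most of the strongest peaks of the X, 90 of the top 100 for MSL1 and 93 for MSL2, and less of the wider selections, 32.9% and 30.4% of the top 1000. In the full lists of the X, 15.9% of shared and 0.392% of private MSL1 peaks were at HAS, and 16.7% and 1.32% of MSL2 peaks.

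At paired peaks the summits were close. Pairs were formed from peaks within 500 bp whose summits were nearest to each other both ways. On the X, 2018 pairs had a median summit distance of 36 bp (95% interval 33 to 39; quartiles 13 and 115), and 59.9% were within 50 bp. On the autosomes, 2917 pairs had a median of 68 bp (63 to 75; quartiles 20 and 367), and 44.2% were within 50 bp (42.4 to 46.0, against 57.8 to 62.0 on the X). The 342 pairs at HAS had a median of 24.5 bp and the other 1676 X pairs one of 39 bp.

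The wider spacing on the autosomes was found at transcription start sites. The 1873 autosomal pairs with a summit within 500 bp of a start site had a median distance of 155 bp (129 to 183), and the 1044 other pairs one of 36 bp (31 to 38), close to the 31 bp (29 to 34) of X pairs away from start sites. On the X, pairs at start sites had a median of 49 bp (42 to 58). With equal length the autosomal medians were 75 bp (61 to 93) at start sites and 30 bp (26 to 35) elsewhere, and those of the X 44 bp (38 to 54) and 29.5 bp (28 to 32), so the order was kept and the autosomal gap was smaller. Among autosomal pairs over 50 bp apart, MSL1 was the nearer of both summits to a start site in 32.3% (30.1 to 34.6), so MSL2 mostly sat nearer. On the X MSL1 was nearer in 44.4% (41.0 to 47.8). With equal length these shares were 39.6% (36.3 to 43.0) and 44.1% (40.4 to 47.9). MSL2 peaks were the wider in 67.2% of X pairs and 75.9% of autosomal pairs, and a wide peak places its summit less exactly.

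**Figure D3:**
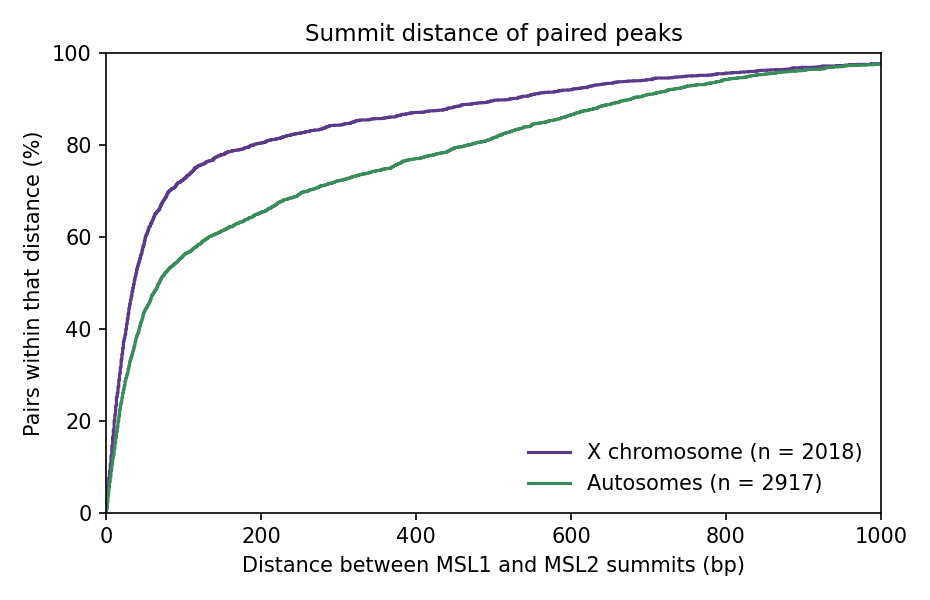
Cumulative percentage of mutually nearest MSL1 and MSL2 peak pairs by the distance between their summits in bp, for 2018 pairs of the X (purple) and 2917 of the autosomes (green), full lists. The X curve rises faster, with 59.9% against 44.2% of pairs within 50 bp; pairs more than 1000 bp apart lie beyond the axis.

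Ranks of the paired peaks went together more closely on the X than on the autosomes. Spearman's rho of MSL1 and MSL2 rank was 0.66 over the 2018 X pairs and 0.14 over the 2917 autosomal pairs. With equal length it was 0.69 over 1717 X pairs and 0.29 over 1671 autosomal pairs. Ranked by fold enrichment, rho was 0.67 and 0.17 in the full lists and 0.71 and 0.41 with equal length. The autosomal value depended on position, being 0.12 at start sites and 0.20 elsewhere in the full lists, and 0.21 and 0.36 with equal length. By fold enrichment and with equal length it was 0.27 at start sites and 0.60 over the 616 other autosomal pairs, against 0.65 and 0.75 on the X. On the X the agreement was closest at HAS, with rho 0.92 over 342 pairs, and was 0.53 over the other 1676. It was 0.69 over 1735 X pairs with an MSL3 peak and 0.31 over 283 without. None of the 283 was in the top 10% of either list, so these values come from different ranges of rank. Of the 233 X pairs in the top 10% of the MSL2 list, 220 were also in the top 10% of the MSL1 list (94.4%), and on the autosomes 166 of 327 were (50.8%). The top 10% of the MSL1 list holds more peaks than that of the shorter MSL2 list, and in the other direction 55.3% of the X pairs and 16.6% of the autosomal pairs in the top 10% of MSL1 were in the top 10% of MSL2. With equal length the shares of MSL2 were 81.1% and 42.7%, and those of MSL1 82.9% and 33.3%. These are descriptions across sites of the same few libraries. The sites share chromatin, sequencing depth and possibly the IgG control, and the pairing itself admits only sites found in both lists.

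**Figure D4:**
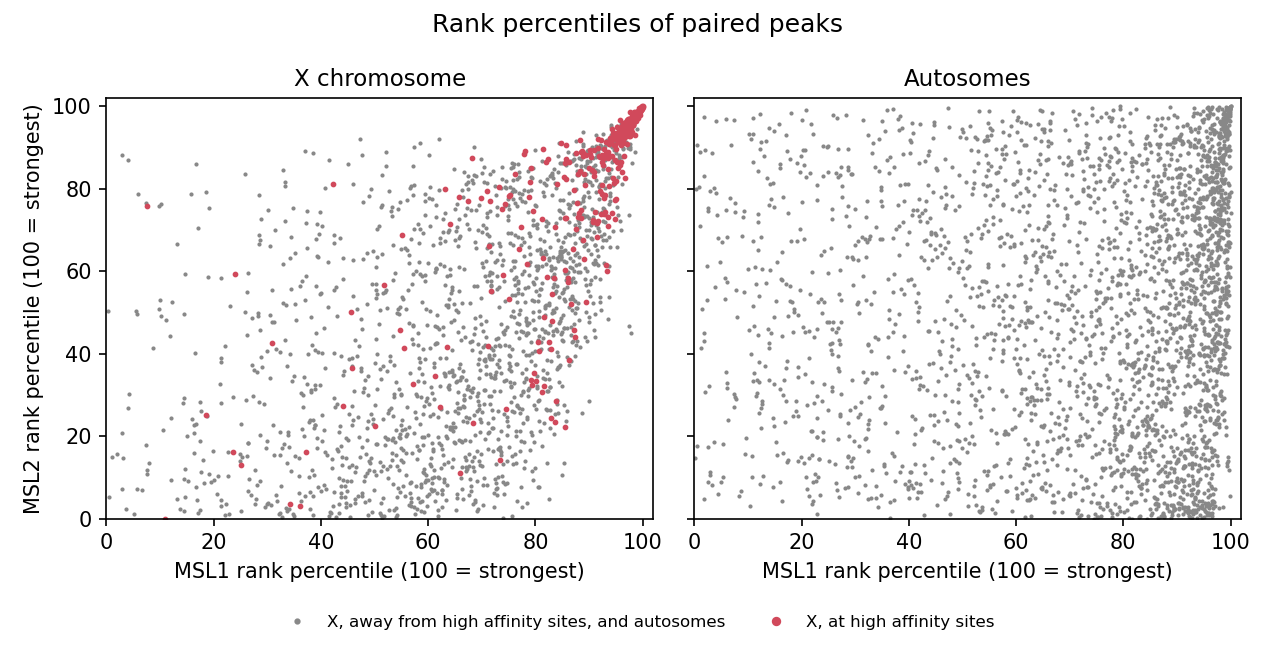
MSL2 rank percentile against MSL1 rank percentile of paired peaks on the X (left, 2018 pairs, those at HAS in red) and the autosomes (right, 2917 pairs), 100 being the strongest peak of that list on those chromosomes. HAS crowd into the upper right corner of the X panel, where rho is 0.92 over 342 pairs, while autosomal points spread over the panel, with rho 0.14.

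The genes of the complex illustrate these classes. Both lists had their strongest X peak at roX1, with summits 8 bp apart, and ranked roX2 19 (summits 7 bp apart). Pp2C1, a phosphatase gene with a known HAS, ranked 4 of 4317 for MSL1 and 10 of 2351 for MSL2, with summits 19 bp apart in an intron. At mof the strongest MSL1 peak ranked 1563 and the strongest MSL2 peak 399, with summits 1191 bp apart. The distances given for genes are between the strongest peak of each protein. These can be separate sites (mof had 2 MSL1 and 3 MSL2 peaks) and need not be the pairs formed above. On the autosomes msl-1 ranked 132 of 17624 for MSL1 and 17 of 3743 for MSL2, with summits 1006 bp apart. Reads of msl-1 exons cannot be told apart from those of the transgene, and the male IgG library is labelled wt. The MSL2 summit there lay between genes, 81 bp from a start site. The msl-2 gene had an MSL1 peak 11 bp from its start (rank 1091) and no MSL2 peak, and msl-3 had a weak MSL1 peak (rank 11429) and no MSL2 peak. Clamp ranked 3204 for MSL1 and 895 for MSL2 (summits 1000 bp apart), and mle 6579 and 1519 (1022 bp apart). Of the 5 genes for protein subunits, 3 had peaks of both proteins, with the strongest summits over 1000 bp apart at each. The share over all genes was not computed, so this count shows nothing particular to these genes.

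The other strongest shared peaks of the X were near CG12237 (MSL1 rank 3, MSL2 rank 3), in the 5′ UTR of CG15247 (5 and 4), in an intron of Rip11 (2 and 8) and in the 3′ UTR of Socs16D (6 and 5), a gene of the suppressor of cytokine signalling family. Their summits were 11, 2, 33 and 0 bp apart, and all were at HAS and had MSL3 in males and both proteins in females. The leading autosomal shared peaks were in introns of COX7AL2 (ranks 2 and 1), Df31, which encodes a chromatin decondensation factor (4 and 3), and RasGAP1 (11 and 5), in lncRNA:iab8 of the bithorax complex (5 and 7) and in the 5′ UTR of Arf1, a small GTPase of the Golgi (15 and 10). All 5 had MSL3 in males and both proteins in females as well.

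Private peaks were weaker than these on the X. The strongest private MSL1 peak of the X, near bves, ranked 441 of 4317, and the next, in a coding exon of alpha-Man-Ia, 719. The third lay 54 bp from a start site of Sxl (rank 761), the switch gene of sex determination whose product blocks msl-2 translation in females. Its edge was only 570 bp from an MSL2 peak, and it had MSL3 in males and both proteins in females. The next were in coding exons of HERC2 (a ubiquitin ligase) and mnb (a protein kinase), ranks 817 and 870. The strongest private MSL2 peaks of the X were in introns of norpA (rank 212 of 2351), CG43658 (330) and dnc (380) and near Ac13E, an adenylyl cyclase gene (338), and CG5966 (393). All 5 had MSL2 in females and none had MSL3 in males.

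On the autosomes, private peaks were found among the strongest of all. Private MSL1 peaks ranked 8 near CG10602, 12 near Sox100B, 14 in dachs, 18 in the 3′ UTR of Antp (a homeotic gene) and 19 in SNF4Agamma, of 17624. All 5 had a peak of MSL3 in males and of MSL1 in females, and MSL2 in females was present at CG10602 alone, where the nearest male MSL2 peak was 671 bp away. At the other 4 the nearest MSL2 peak was 1387 to 24757 bp away. Private MSL2 peaks ranked 40 in the 5′ UTR of CG13775, 46 near CenG1A, 51 near asRNA:CR45738, 52 in the 5′ UTR of CG18622 and 55 in asRNA:CR44119, of 3743. All 5 had MSL2 in females, and none had MSL3 in males or MSL1 in females.

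Pairs with the most unequal ranks differed in position, read at the MSL2 summit of each pair. MSL1 led in coding exons of Pkcdelta (percentile 82.5 of MSL1, 4.81 of MSL2), BORCS5 and ras (which encodes IMP dehydrogenase) on the X, and of Hsc70-4 (a chaperone; 96.6 and 0.668), TP53INP and slmo on the autosomes. MSL2 led in introns of CG3638 (2.97 of MSL1, 88.1 of MSL2), Vinc (vinculin) and pico (an actin regulator) on the X, and on the autosomes near lncRNA:CR31044 (1.74 and 97.4), in the 5′ UTR of dsx, the sex differentiation gene, and near CG11790. All 6 of the latter had MSL2 in females, and of the former only ras did. In the order named, summits were 45, 60, 440, 326, 2 and 28 bp apart in the pairs led by MSL1. They were 654, 338, 282, 879, 250 and 332 bp apart in the pairs led by MSL2.

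The same split by position held across the lists. On the X 66.8% of private MSL1 summits (64.6 to 69.0) and 2.20% of private MSL2 summits (0.944 to 5.05; 5 of 227) were in coding exons, against 16.7% of tile middles. On the autosomes the values were 63.8% (63.0 to 64.6) and 3.38% (2.30 to 4.94), against 17.1% of tiles. Shared summits lay between, at 55.4% for MSL1 and 45.2% for MSL2 on the X and at 44.8% and 17.7% on the autosomes. Private MSL2 summits lay instead in introns, 63.0% of the X (tiles 43.7%) and 43.9% of the autosomes (tiles 39.0%), and between genes, 22.9% (tiles 23.0%) and 34.9% (tiles 28.6%). With equal length the coding share of private summits was 79.3% for MSL1 and 13.4% for MSL2 on the X and 74.1% and 7.60% on the autosomes.

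GC content moved with this split. The median GC of the 201 bp around the summit was 58.2% for private MSL1 and 45.8% for private MSL2 peaks on the X and 56.7% and 44.3% on the autosomes, and the median tile had 42.3%. Among summits with a GC content of 45 to 55%, 38.7% of 478 private MSL1 and 1.82% of 110 private MSL2 summits of the X were in coding exons, and 36.9% of 4654 and 4.59% of 305 on the autosomes. The contrast was smaller, and still present, within this range. GC was not compared between the classes inside it, and a part of GC in the contrast was not tested.

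**Figure D5:**
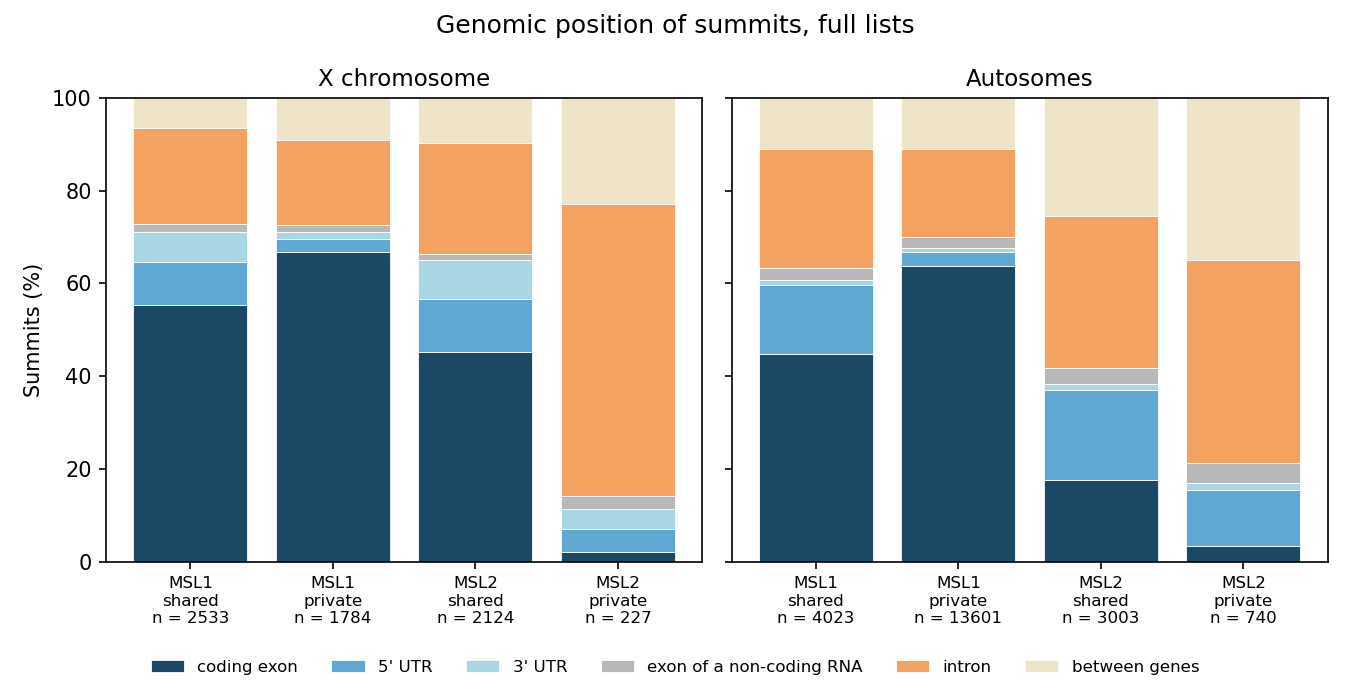
Genomic position of summits as a percentage of each class, shared and private peaks of MSL1 and MSL2, X on the left and autosomes on the right, full lists. Coding exons (dark blue) make up 66.8% and 63.8% of private MSL1 summits but 2.20% and 3.38% of private MSL2 summits, where introns and sequence between genes take most of the bar.

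MSL2 summits lay at start sites more often than tiles whether shared or private, and MSL1 summits mainly when shared. On the autosomes 61.8% of shared (60.1 to 63.6) and 57.8% of private MSL2 summits (54.2 to 61.3) were within 500 bp of a start site, against 17.0% of tile middles. For MSL1 it was 48.2% of shared and 19.8% of private summits. On the X the shares were lower, 34.9% and 33.0% for MSL2 and 30.6% and 16.8% for MSL1, against 15.7% of tiles. Along genes of 2000 bp or more, private MSL1 summits of the X were in the 3′-most of 3 equal parts in 52.0% and in the 5′-most part in 18.6%, while shared MSL1 summits were at 36.5% and 36.6%. On the autosomes 42.7% of private MSL1 summits were in the 3′-most part and 62.3% of shared ones in the 5′-most.

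MSL3 in males, which was not used to sort the peaks, accompanied shared peaks. On the X 85.9% of shared MSL1 peaks and 86.3% of shared MSL2 peaks had an MSL3 peak within 500 bp, against 31.1% (29.0 to 33.3) of private MSL1 and 22.9% (17.9 to 28.8) of private MSL2 peaks, and 22.7% of tiles. Autosomal shares were 56.6% and 57.8% for shared peaks, 23.2% (22.5 to 23.9) for private MSL1 and 15.3% (12.9 to 18.0) for private MSL2 peaks, and 7.95% of tiles. The order was kept when distance was taken from the summit, which removes the reach of wide peaks, with 84.2%, 84.6%, 29.7% and 18.9% on the X and 51.0%, 49.5%, 21.5% and 11.9% on the autosomes. With equal length, 58.9% of private MSL1 and 32.2% of private MSL2 peaks of the X had MSL3, and 45.0% and 29.6% of those of the autosomes.

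In M1[WT]+MSL2 females MSL2 was found at private MSL2 peaks more often than at tiles, and MSL1 at private MSL1 peaks more often than at tiles on the autosomes alone. On the autosomes MSL2 in females was found at 9.73% of private MSL2 peaks (7.80 to 12.1) and at 0.904% of private MSL1 peaks (0.759 to 1.08), against 1.08% of tiles, and at 22.1% of shared MSL2 peaks. MSL1 in females was found at 0.956% of private MSL1 peaks (0.806 to 1.13) and at 1 of 740 private MSL2 peaks (0.135%), against 0.499% of tiles, and at 8.10% of shared MSL1 peaks. With equal length it was at 4.62% of private MSL1 peaks (3.76 to 5.67) and 0.667% of private MSL2 peaks (0.390 to 1.14) of the autosomes. On the X MSL2 in females was at 27.8% of private MSL2 and 9.02% of private MSL1 peaks, against 10.6% of tiles, and at 52.3% of shared MSL2 peaks. MSL1 in females was at 1.29% and 2.64% of private MSL1 and MSL2 peaks of the X, below the 5.28% of tiles, and at 28.3% of shared peaks of either list. With equal length the 2 private shares of MSL1 in females on the X were 3.16% (1.77 to 5.57) and 3.10% (1.89 to 5.05).

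Sequence differed between the classes. GAGAGAGA on either strand was found within 100 bp of 21.1% of private MSL2 summits of the X (16.3 to 26.9), 11.4% of shared MSL2 summits, 8.13% of shared MSL1 and 1.40% of private MSL1 summits, against 1.54% of 201 bp tiles. On the autosomes it was found at 7.97% of private and 7.03% of shared MSL2 summits, 4.45% of shared and 1.11% of private MSL1 summits, against 1.04% of tiles. The shorter GAGAG gave the same order on the X, with 53.3%, 38.3%, 35.6% and 24.3%, and 39.7%, 38.4%, 34.4% and 25.3% on the autosomes, against 21.5% of tiles on both. TATCGATA was found at 4.46% of private and 3.60% of shared autosomal MSL2 summits but at 0.696% of shared and 0.169% of private MSL1 summits (tiles 0.534%). On the X it was found at 2.20% (5 of 227, 0.944 to 5.05), 0.942%, 0.395% and 0.392% (tiles 0.706%). GGTCACAC was found at 3.46% of shared and 0.405% of private MSL2 summits (3 of 740) and at 2.73% and 0.735% of MSL1 summits of the autosomes (tiles 0.418%). On the X it was found at 1.13% and 0.881% (2 of 227, 0.242 to 3.15) of MSL2 and 1.22% and 0.392% of MSL1 summits (tiles 0.486%). With equal length the autosomal values were 4.23% and 1.59% for MSL2 and 5.10% and 2.31% for MSL1, so private summits then exceeded tiles. GAGAGAGA kept its order with equal length, at 18.0%, 10.9%, 8.79% and 1.44% on the X and 7.29%, 7.13%, 4.94% and 0.537% on the autosomes. Private and shared MSL2 summits of the autosomes were not told apart by it, with a full-list difference of 0.947 points (-1.05 to 3.29). Their intervals also overlapped for GAGAG and TATCGATA.

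AAGCAGT, which recurs in the private MSL1 sequences printed above, was frequent at the strongest private MSL1 peaks of the autosomes. Of the strongest 100, 45 held it within 100 bp of the summit and 37 held it at least 2 times (28.2% to 46.8%), against 2.48% and 0.0602% of 201 bp tiles. Without the 5 named peaks it was 32 of 95 (33.7%, 25.0 to 43.7). Of the strongest 500, 42 held it at least 2 times, and of the remaining 13101 only 6. Over all private autosomal MSL1 peaks 3.03% held it (2.75 to 3.33), close to the tile value, so the excess lay at the top of the list. With equal length it was 5.21% of the private ones (4.29 to 6.32). In the strongest 100 private MSL2, shared MSL2 and shared MSL1 peaks of the autosomes, 0, 0 and 13 held it at least 2 times, each count of 0 having a Wilson upper limit of 3.70%.

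In all, 68 autosomal MSL1 peaks held AAGCAGT at least 2 times, with a median rank of 116.5 of 17624. Of these, 48 were private (70.6%, 58.9 to 80.1), against 77.2% of all autosomal MSL1 peaks, so private peaks were not in excess among them. Of the 68, 58 (85.3%) had MSL1 in females, 50 (73.5%) MSL3 in males and 11 (16.2%) MSL2 in females, and 82.4% lay in introns or between genes. Their median GC content was 42.5%, the tile value being 42.3%. The 20 shared ones had a median MSL1 rank of 77.5, and the strongest MSL2 peak beside them a median rank of 1238.5 of 3743. On the X only 17 MSL1 peaks held it at least 2 times, 12 of them shared, and of all MSL1 peaks of the X 58.7% were shared. Of the strongest 100 private MSL1 peaks of the X, 3 held it at least 2 times, against 0.0891% of tiles for at least 2 and 2.42% for any match. Without the 5 named peaks it was 1 of 95 (1.05%, 0.186 to 5.72), so that 2 of these 3 were peaks in which the letters were first seen. A match says only that these letters are in the window.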

How the data were processed

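Per the methods, paired-end reads were trimmed (cutadapt) and mapped to dm6 (Bowtie 2) by the authors. Peaks were called by MACS2, with nonspecific IgG as control and a permissive p-value, once duplicates and blacklisted regions had been taken out. The MSL2 list then went through IDR on 2 inputs, and the MSL1 list has the form of MACS2 output. Each deposited peak carries a score, a fold enrichment over IgG (a ratio), a −log10 p, a −log10 q (from a q-value) and a summit offset, all values of the authors. Here they were used only as ranks within a list, with ties in −log10 p broken by fold enrichment, and to describe the lists. Depth is not given.

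Overlaps, intervals and matches were computed in Python 3.11.15 with numpy 2.4.6, scipy 1.17.1 and pandas 2.3.3, and figures were drawn with matplotlib 3.10.9. The functions were tested on simulated data, with overlaps compared with those of bedtools 2.31.1. Genes came from Ensembl release 115, whose assembly is that of dm6, bases from the RefSeq copy of Release 6, and HAS positions from the supplementary list of the study. Each base of several overlapping annotations was counted as coding exon first, then UTR, noncoding exon, intron. Named peaks were, on the X and on the autosomes without 2R, the 5 shared pairs with the lowest rank sums, the 5 strongest private peaks of each protein and the 3 most discordant pairs each way, plus the genes of the complex, Clamp and Pp2C1. The position given for a shared or discordant pair is that of its MSL2 summit. Of 2 further example genes fixed with these, cno had its strongest MSL1 peak (rank 120) shared and bun its strongest (rank 28) private. Members, lists and motifs were chosen with earlier results of these data known. The GC range, the distance from the summit, the strongest 6110 MSL1 peaks and the searches for AAGCAGT and GAGAG were added after the data had been seen. The list of MSL3 in females entered only the total of peaks, and coverage tracks were not used here. Alternatives were gaps of 0 and 1000 bp, distances between or from summits, joined peaks, stronger peaks, ranks by fold, wider start sites and narrower motif windows.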

Additional observations from a re-analysis of the deposited data

Results flagged for a closer look

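Peaks on sequences outside the X and the 5 autosomal arms entered no comparison. The MSL1 list held 39 of them, 14 on Y sequences, and the MSL2 list 16, of which 6 were on Y sequences. Of these, 16 MSL1 peaks and 15 MSL2 peaks had a peak of the other protein within 500 bp.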

How the results depend on the processing

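No comparison between the X and the autosomes changed direction under any setting tried, and 61 values moved beyond their counting interval, in size only. Listed in the order MSL1 and MSL2 of the X, then MSL1 and MSL2 of the autosomes, a gap of 0 bp gave shared percentages of 52.5, 88.1, 18.2 and 74.3 in the full lists and of 80.5, 75.5, 45.2 and 42.7 with equal length. A gap of 1000 bp gave 64.0, 93.2, 28.1 and 85.7, and 88.8, 83.8, 55.4 and 52.4. Summits within 500 bp of each other gave 42.2, 77.2, 13.8 and 63.7, and 65.2, 65.2, 36.7 and 36.6. Distance from the summit to the other peak, chosen after seeing the data, gave 54.3, 88.6, 19.7 and 74.6, and 81.4, 76.3, 45.9 and 42.8. A −log10 q of at least 2 gave 70.3, 87.6, 31.4 and 69.6. The strongest 50% of each list gave 48.8 for MSL1 of the X and 21.0 and 67.9 for the autosomes. Ranks by fold enrichment gave 52.8 and 50.3 on the autosomes with equal length. Equal length changed the width ratio of shared to private MSL1 peaks to 1.61 (X) and 1.25 (autosomes) and that of autosomal MSL2 peaks to 1.36. It changed the autosomal summit distance to 46 bp, rho to 0.69 (X) and 0.29 (autosomes), and the MSL3 difference of private minus shared MSL1 peaks to -34.2 points (X) and -26.7 points (autosomes). Pairing each MSL2 peak with the strongest MSL1 peak gave 69.5 bp and rho 0.57 on the X and 123 bp on the autosomes, and a gap of 0 bp gave 60 bp there. With start sites within 1000 bp, private minus shared MSL1 peaks differed by -18.8 points (X) and -36.0 points (autosomes). With motif windows of 50 bp the GAGAGAGA difference was -5.22 and -2.07 points. The strongest 6110 MSL1 peaks, chosen after seeing the data, had 37.5% on the X in place of 19.6%. The cause of these changes was not tested. Joining peaks changed nothing, since no peaks of a list overlap. No paired analysis was possible because each protein has a single list, and for the same reason no replicate could be left out. Depth per library is unknown, so absence of a peak cannot be separated from shallow sequencing.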
